A study of Homo sapiens with 8 samples.

Results

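The genes described here are the ADAM and MMP metalloproteinases, their TIMP inhibitors, the lysosomal cathepsins and a pair of cystatins, read in human acute myeloid leukemia (AML) lines after knockdown (KD) of the arginine methyltransferase PRMT9. Members were all genes of the Molm13 table whose symbol was ADAM, ADAMTS or MMP with a number, TIMP with a digit, or CTS with a letter, leaving out CTSG, plus ADAMDEC1, CST3 and CSTB. This rule gave 84 genes of 57992 in the Molm13 table, and all 84 were also among the 58174 genes of the THP1 table. They were 23 ADAMs with ADAMDEC1, 19 ADAMTS genes, 22 MMPs, 4 TIMPs, 14 cathepsins and 2 cystatins.

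Molm13 and THP1 are monocytic AML lines that carry MLL (KMT2A) fusions. Poly(A) RNA was sequenced from each line with a control hairpin (shCtrl, genotype WT) or a hairpin against PRMT9 (shPRMT9, PRMT9 knockdown), with 2 libraries in each of the 4 groups. Every group, the controls included, is labeled as induced with Dox, and age and strain do not apply to the lines. Nothing states that the 2 libraries of a group came from separate cultures, so the tests measure the spread between these libraries, which may be technical. The shPRMT9 libraries are numbered 1 and 2, and the study also numbers its hairpins in this way, so whether they share a hairpin is not known. The names of the THP1 libraries carry the letters OCI, and MEIS1, a marker of MLL-rearranged leukemia, had counts of 7, 4, 8 and 9 in them, so these libraries are called THP1 only as labeled.

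Library totals ranged from 18720950 to 27356870 counts. Gene positions are given as in the Molm13 table, on hg38 according to the processing notes of the submitters. PRMT9 itself fell from 332 and 289 counts to 41 and 56 in Molm13 and from 317 and 352 counts to 60 and 68 in THP1. Of 10 monocytic AML markers, 9 were tested in each line, and 8 rose and 1 fell in Molm13, whereas 7 rose and 2 fell in THP1. Their summed level moved with the KD in both lines, from 614-618 to 894-895 RPKM (reads scaled to exon length and library size) in Molm13 and from 1356-1375 to 2051-2137 RPKM in THP1. LYZ was the largest part of these sums, at 358 and 360 against 564 and 573 RPKM in Molm13. In THP1 it was at 1071 and 1064 against 1787 and 1703 RPKM. The markers that fell were MPO in both lines (log2 fold changes -0.56, FDR = 3.26e-13, and -0.82, FDR = 2.23e-05) and CEBPA in THP1 (-0.12, FDR = 0.00256). The part of the marker shift in the protease results was not tested. CD14, which defines mature monocytes, had only 4, 6, 8 and 7 counts in the Molm13 libraries and was not tested there. In THP1 CD14 rose from 24 and 24 counts in shCtrl to 116 and 122 in shPRMT9 (log2 fold change 2.40, FDR = 3.73e-10). Summed levels of the T cell, erythroid, and epithelial or fibroblast marker lists stayed at or below 0.21 RPKM in all libraries. B cell markers summed to 4.71-4.75 RPKM in shCtrl and 4.58-4.78 RPKM in shPRMT9 in Molm13, and to 0.927-1.02 against 1.79-2.28 RPKM in THP1. Of these markers PAX5 rose in THP1, from 64 and 86 counts to 298 and 276 (log2 fold change 2.03, FDR = 7.37e-13), and its part in the protease results was not tested. The libraries are bulk, so fewer cells of a type and less RNA per cell cannot be told apart.

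ADAMs are membrane-anchored proteases that cut the outer part off cytokines, receptors and adhesion molecules, a step called shedding. ADAMTS enzymes are secreted and process matrix proteins such as procollagens and proteoglycans, MMPs degrade matrix and basement membrane, and TIMPs block these metalloproteinases. Cathepsins break down proteins in lysosomes and process antigens in myeloid cells, and cystatins inhibit the cysteine cathepsins.

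Of the 84 members, 41 had enough reads to be tested in Molm13 and 51 in THP1, 40 in both lines and 52 in at least 1. The filter keeps a gene that has enough counts in as few as 2 libraries, so a member could pass through the group in which it was high. In Molm13 ADAMDEC1, ADAM11, ADAMTS6, MMP9, MMP19 and CTSV passed through shPRMT9, and MMP24 passed through shCtrl. ADAMDEC1 and ADAMTS14 passed through shPRMT9 in THP1, and ADAMTS3 through shCtrl. The counts of risen and fallen members and the medians below include these genes, whose direction the filter favored. The 32 members tested in neither line reached at most 9 counts in any library, and 9 of them had no count in any of the 8. Among these 9 were ADAM33, MMP7, MMP10, MMP12 (the macrophage elastase) and TIMP4, and a count of 0 allows up to 3 in a library. MMP1, MMP3 and MMP8, the interstitial collagenase, stromelysin and neutrophil collagenase, had at most 1, 1 and 3 counts.

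In Molm13, 29 of the 41 tested members rose and 8 fell at an FDR (Benjamini-Hochberg adjusted p over all genes tested) below 0.05 in edgeR's quasi-likelihood test (70.7% and 19.5%). Over all 16446 genes tested in this line, 33.4% rose and 33.5% fell. The median log2 fold change (shPRMT9 against shCtrl) over the tested members was 0.70, against 0.000472 over all genes. With the further limits of a fold change beyond 1.5 in either direction and an RPKM above 1 in at least 1 library, 15 members were upregulated differentially expressed genes (DEGs) and 1, ADAMTS1, was a downregulated DEG, where the shares over all genes were 11.4% and 11.3%. Of the tested members, 31 had both shPRMT9 libraries above both shCtrl libraries and 9 had them below, and over all genes 41.1% and 40.8% were without overlap in these directions.

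In THP1, 23 of 51 tested members rose (45.1%) and 10 fell (19.6%), whereas 19.0% of the 16294 genes tested rose and 18.6% fell. The share of members that fell was thus near the background. Without shCtrl replicate 2, 6 members fell in place of 10. The median log2 fold change over the members was 0.21, against -0.000631 over all genes, and it was 0.14 without shCtrl replicate 2. DEGs comprised 10 upregulated members and 2 downregulated ones, ADAMTS1 and TIMP3, and over all genes 3.82% and 2.39% were DEGs in these directions. The shPRMT9 libraries were without overlap above the controls for 28 members and below them for 18, with 33.0% of all genes in each direction.

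Among the 40 members tested in both lines, 18 rose in both (45.0%) and 1 fell in both, where 11.5% and 10.8% of the 13476 genes tested in both lines did so. A further 8 members moved in opposite directions (20%), against 11.3% of all genes. ADAMDEC1, CTSB, CTSL, CTSO and CTSS were upregulated DEGs in both lines, and ADAMTS1 was a downregulated DEG in both. The plot of log2 fold changes by class shows all 52 members tested.

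**Figure D1:**
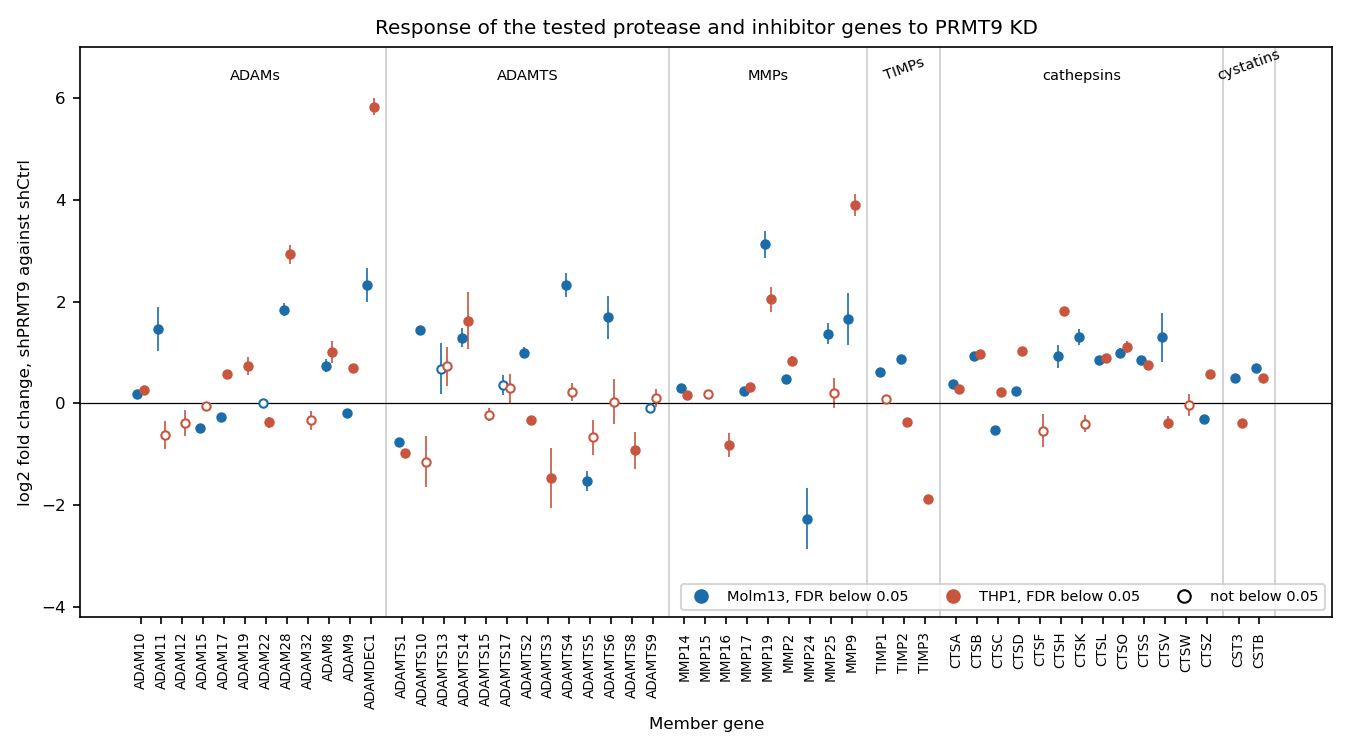
Log2 fold change (shPRMT9 against shCtrl, y axis) of each member tested in at least 1 line (x axis, grouped by class), in Molm13 (blue) and THP1 (red). Points are fitted values, bars 1 SE, and filled points have an FDR below 0.05. ADAMDEC1 in THP1 lies highest at 5.83, and most filled cathepsin points lie above 0.

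In the ADAM class 5 of 9 tested members rose and 3 fell in Molm13, and 7 of 12 rose and 1 fell in THP1, with median log2 fold changes of 0.18 and 0.42. Beside these and the class counts below stand the shares over all genes. These were 33.4% risen and 33.5% fallen in Molm13, and 19.0% and 18.6% in THP1. The share of ADAMs that fell in Molm13 was near its background. The highest rise belonged to ADAMDEC1, a secreted ADAM-like protease of macrophages and dendritic cells (chr8:24384285-24406013). In Molm13 it had 10 and 9 counts with shCtrl and 53 and 43 with shPRMT9, for a log2 fold change of 2.33 (SE 0.33, FDR = 5.27e-08). The THP1 libraries held 13 and 10 counts of it in shCtrl and 642 and 596 in shPRMT9, a 56.8-fold rise (log2 fold change 5.83, SE 0.16, FDR = 1.65e-21). Both lines started from a similarly low level, and the libraries of the groups did not overlap in either. The rise in THP1 exceeded that in Molm13 by 3.51 on the log2 scale (SE 0.53, FDR = 1.57e-08).

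ADAM28, a lymphocyte-expressed metalloproteinase, lies next to ADAMDEC1 on the same strand (chr8:24294040-24359018). Its counts were 74 and 69 in shCtrl and 248 and 263 in shPRMT9 in Molm13, and 30 and 27 against 191 and 216 in THP1. All shPRMT9 libraries stood above their controls. The log2 fold changes were 1.84 (SE 0.13, FDR = 7.09e-17) and 2.92 (SE 0.18, FDR = 2.37e-13), and the latter was larger by 1.10 (FDR = 0.000118). In THP1 it was not a DEG, since its highest level was 0.93 RPKM. ADAM8, a leukocyte sheddase, rose from 1.04 and 1.07 to 1.85 and 1.69 RPKM in Molm13 (log2 fold change 0.74, FDR = 3.4e-06). In THP1 its level went from 0.318 and 0.369 to 0.622 and 0.766 RPKM (log2 fold change 1.01, FDR = 0.000318). The responses of ADAM8 were not called different between the lines (difference 0.28, SE 0.25, FDR = 0.404).

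**Figure D2:**
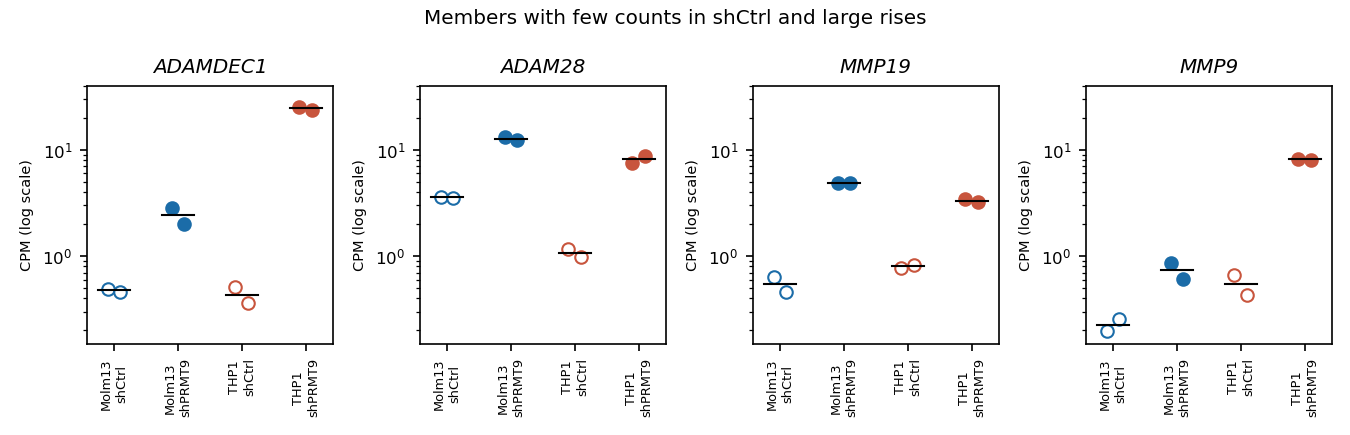
CPM (counts scaled to library size, log scale on the y axis) of ADAMDEC1, ADAM28, MMP19 and MMP9 in each library, by group on the x axis. Open points are shCtrl and filled points shPRMT9 libraries, and lines are group means. The genes were chosen for few counts in shCtrl and large rises. By this choice the shPRMT9 libraries lie above the shCtrl libraries, most widely for ADAMDEC1 in THP1.

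The widely expressed sheddases were at higher levels and had smaller log2 fold changes. ADAM10, which sheds Notch receptors and many adhesion molecules, was at 13.9 and 14.1 RPKM in shCtrl and 15.9 and 15.7 in shPRMT9 in Molm13, and at 14.4 and 14.3 against 17.9 and 16.7 in THP1. It rose in both, by 0.18 (FDR = 4.24e-07) and 0.27 (FDR = 5.18e-07) on the log2 scale. ADAM17, the TNF converting enzyme, was at 10.6 and 9.98 RPKM in Molm13 controls and 8.39 and 8.71 after KD, and at 13.0 and 12.8 against 19.1 and 19.2 in THP1. It fell in Molm13 (log2 fold change -0.27, FDR = 1.28e-05) and rose in THP1 (0.57, FDR = 1.12e-11). ADAM9, another broadly expressed sheddase, went from 16.8 and 17.1 to 14.3 and 15.4 RPKM in Molm13 and from 7.73 and 7.89 to 12.8 and 12.6 RPKM in THP1. It likewise fell in Molm13 (-0.19, FDR = 4.07e-05, and -0.12 without shPRMT9 replicate 1) and rose in THP1 (0.70, FDR = 7.66e-13). The responses of ADAM17 and ADAM9 differed between the lines by 0.85 (SE 0.07, FDR = 5.09e-20) and 0.90 (SE 0.06, FDR = 5.46e-24). IAH1, with log2 fold changes of 0.53 and -0.08, overlaps ADAM17 on the opposite strand, and the strand setting of the counting is not given in the sources used here.

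Of the remaining ADAMs, ADAM15 fell in Molm13 (log2 fold change -0.48, FDR = 1.81e-09) and stood at -0.06 in THP1 (FDR = 0.443). ADAM11, a catalytically inactive member of the nervous system, rose in Molm13 from 3 and 15 counts to 28 and 22. The shCtrl libraries are far apart, and its log2 fold change of 1.46 became 3.04 without shCtrl replicate 2, 0.70 without shCtrl replicate 1 and 1.20 without shPRMT9 replicate 1, with no call in the latter pair and none by DESeq2. ADAM22, also inactive, fell in THP1 (-0.37, FDR = 0.00683), a call that was lost without shCtrl replicate 2 (-0.32) or shPRMT9 replicate 1 (-0.28), and by DESeq2. ADAM19 was nearly absent in Molm13, with at most 3 counts, and rose in THP1 from 62 and 66 counts to 99 and 100 (log2 fold change 0.73, FDR = 0.00144). ADAM12 and ADAM32 passed the filter in THP1 alone and were not called (-0.39 and -0.33). Summed over all 23 ADAMs, the level was 51.3 and 51.7 RPKM in Molm13 shCtrl and 50.2 and 50.8 in shPRMT9, and 48.9 and 47.7 against 73.2 and 72.3 in THP1.

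Of the ADAMTS genes, 5 of 10 tested rose and 2 fell in Molm13, and 1 of 13 rose and 4 fell in THP1. The class medians were 0.84 and -0.22. ADAMTS1, a protease of aggrecan and versican (chr21:26835747-26845409), was the member downregulated in both lines. Its level went from 5.85 and 5.96 RPKM to 3.71 and 3.32 in Molm13 (log2 fold change -0.75, SE 0.06, FDR = 4.5e-14) and from 4.12 and 4.02 to 2.16 and 2.00 RPKM in THP1 (-0.97, SE 0.07, FDR = 2.06e-11). The groups did not overlap, and the responses were not called different (-0.21, SE 0.10, FDR = 0.106).

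ADAMTS10, which binds fibrillin (chr19:8580242-8610735), rose in Molm13 from 4.37 and 3.71 RPKM to 10.9 and 11.1 (log2 fold change 1.45, FDR = 1.9e-24). In THP1 it was close to absent, with 14 and 17 counts in shCtrl and 8 and 5 in shPRMT9 (log2 fold change -1.14, FDR = 0.0704), and it was called as fallen there when both lines were in 1 fit (-1.14). ADAMTS2, a procollagen N-propeptidase, rose in Molm13 from 0.712 and 0.761 to 1.56 and 1.39 RPKM (log2 fold change 1.00, FDR = 1.46e-10). In THP1 it was more abundant and fell, from 4.16 and 4.15 to 3.35 and 3.27 RPKM (-0.33, FDR = 8.51e-05). The THP1 responses of ADAMTS10 and ADAMTS2 differed from those in Molm13 by -2.58 (FDR = 9.03e-07) and -1.31 (FDR = 3.63e-15).

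Both lines showed a rise of ADAMTS14, a related propeptidase, with log2 fold changes of 1.29 in Molm13 (FDR = 1.02e-07) and 1.63 in THP1 (FDR = 0.0212). Its THP1 controls had 1 and 12 counts against 24 and 14 after KD, and the THP1 call was lost without shCtrl replicate 1 (0.80) or shPRMT9 replicate 1 (1.20), while the value was 4.12 without shCtrl replicate 2. The aggrecanases ADAMTS4 and ADAMTS5 went apart in Molm13: ADAMTS4 rose from 16 and 19 counts to 87 and 89 (2.32, FDR = 1.6e-11), and ADAMTS5 fell from 111 and 105 counts to 31 and 44 (-1.52, FDR = 1.83e-09). In THP1 neither was called, at 0.22 and -0.67. ADAMTS6 rose in Molm13 (1.69, FDR = 0.000538) from 12 and 3 counts to 23 and 26, and the value was 2.94 without shCtrl replicate 1 and 1.05 without shCtrl replicate 2.

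ADAMTS3 and ADAMTS8 were tested in THP1 only and fell there (-1.47, FDR = 0.0497, and -0.92, FDR = 0.0432). In Molm13 ADAMTS3 had no count and ADAMTS8 at most 3 in any library. ADAMTS3 was at 13 and 17 counts in THP1 controls and 9 and 1 after KD, and ADAMTS8 at 31 and 34 against 22 and 10. Both calls were lost without THP1 shPRMT9 replicate 2, with values of -0.65 for ADAMTS3 and -0.48 for ADAMTS8. They were also lost without shCtrl replicate 1 (-1.59 and -0.93) or shCtrl replicate 2 (-1.33 and -0.92), and without shPRMT9 replicate 1 the values were -3.65 and -1.58. That of ADAMTS3 was also lost without a filter and with median-of-ratios scaling, and that of ADAMTS8 by DESeq2. For ADAMTS3 DESeq2 gave no adjusted p. ADAMTS9, ADAMTS13 and ADAMTS17 were tested in both lines and ADAMTS15 in THP1, and none of these was called at log2 fold changes from -0.22 to 0.73.

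Among the MMPs, 6 of 7 tested members rose and 1 fell in Molm13, and 5 of 8 rose and 1 fell in THP1 (medians 0.48 and 0.26). MMP14 and MMP17, membrane-bound enzymes, were the most abundant. MMP14, which activates the MMP2 proenzyme at the cell surface (chr14:22836557-22849027), was at 25.2 and 25.4 RPKM in Molm13 controls and 32.1 and 30.3 after KD, and at 29.5 and 28.6 against 32.1 and 33.2 in THP1. It rose by a log2 fold change of 0.30 in Molm13 (FDR = 6.58e-10) and 0.17 in THP1 (FDR = 0.000741). MMP17 rose from 8.96 and 8.76 to 10.4 and 10.6 RPKM in Molm13 and from 5.85 and 5.33 to 7.01 and 6.85 RPKM in THP1 (log2 fold changes 0.24, FDR = 0.000247, and 0.31, FDR = 0.000724).

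The gelatinases, which degrade denatured collagen and basement membrane, are MMP9 and MMP2. MMP9 (chr20:46008908-46016561) had 4 and 5 counts in Molm13 controls and 16 and 13 after KD, and 17 and 12 against 207 and 201 in THP1. In THP1 this was a 14.9-fold rise (log2 fold change 3.90, SE 0.21, FDR = 8.58e-15) that ended at 3.52 and 3.46 RPKM. In Molm13 the log2 fold change of 1.66 (SE 0.51, FDR = 0.00417) rests on few counts, and the call was lost without shCtrl replicate 1 (1.48) or shPRMT9 replicate 1 (1.43), and by DESeq2. The difference between the lines was 2.24 (FDR = 0.00566), and it was 2.01 with no call without Molm13 shCtrl replicate 2. MMP2 rose from 3.92 and 3.94 to 5.19 and 5.77 RPKM in Molm13 (0.48, FDR = 1.86e-07) and from 1.80 and 2.23 to 3.76 and 3.44 RPKM in THP1 (0.84, FDR = 6.86e-08).

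MMP19, which cuts basement membrane proteins (chr12:55835433-55842966), had the largest rise in Molm13. Its counts were 13 and 9 in shCtrl and 91 and 103 in shPRMT9 in Molm13, and 20 and 23 against 86 and 81 in THP1. These gave log2 fold changes of 3.13 (SE 0.26, FDR = 2.52e-14) and 2.05 (SE 0.24, FDR = 8.29e-08), with 1.04 and 1.03 RPKM after KD in Molm13 and at most 0.73 RPKM in THP1. The difference of -1.07 (FDR = 0.0307) was not called without Molm13 shCtrl replicate 2 (-0.90), without THP1 shCtrl replicate 2 (-1.06) or by DESeq2. TMEM198B, which overlaps it on the opposite strand, had log2 fold changes of 0.75 and 0.15. MMP25, a GPI-anchored leukocyte MMP, rose in Molm13 from 0.379 and 0.52 to 1.16 and 1.16 RPKM (1.37, FDR = 6.16e-08) and was at 0.303 and 0.244 against 0.279 and 0.351 RPKM in THP1 (0.21, FDR = 0.627). Its antisense partner MMP25-AS1 had a log2 fold change of -0.15 in Molm13. MMP24 fell in Molm13 from 12 and 13 counts to 2 and 3, a ratio of shCtrl to shPRMT9 of 4.98 (95% exact interval 1.87 to 16.7, covering counting error only), and DESeq2 did not call it. MMP16 fell in THP1 (-0.81, FDR = 0.00557), which was lost without shCtrl replicate 1 (-0.66) and by DESeq2, and MMP15 was not called there (0.18).

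Both tested TIMPs rose in Molm13, whereas 2 of 3 fell and none rose in THP1. TIMP1 (chrX:47582313-47586789) went from 24.7 and 27.1 to 37.7 and 41.7 RPKM in Molm13 (log2 fold change 0.62, SE 0.06, FDR = 1.89e-13) and was at 25.3 and 24.8 against 26.4 and 27.0 RPKM in THP1 (0.09, FDR = 0.213). TIMP2, which also takes part in the activation of MMP2 by MMP14, went from 2.01 and 2.44 to 4.07 and 4.03 RPKM in Molm13 (0.87, FDR = 3.69e-12) and from 8.39 and 7.59 to 6.18 and 6.29 RPKM in THP1 (-0.36, FDR = 2.27e-05). TIMP3, the matrix-bound inhibitor that also blocks ADAM17 (chr22:32801701-32863043), had no count in any Molm13 library. In THP1 it fell from 1029 and 1000 counts to 251 and 264, from 8.72 and 7.81 to 2.16 and 2.31 RPKM (-1.88, SE 0.08, FDR = 3.69e-17). The responses of TIMP1 and TIMP2 differed between the lines, by -0.52 (FDR = 7.22e-08) and -1.21 (FDR = 1.79e-17, THP1 minus Molm13). Summed over the class, TIMPs went from 26.7 and 29.5 to 41.8 and 45.8 RPKM in Molm13 and from 42.4 and 40.2 to 34.8 and 35.6 RPKM in THP1.

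**Figure D3:**
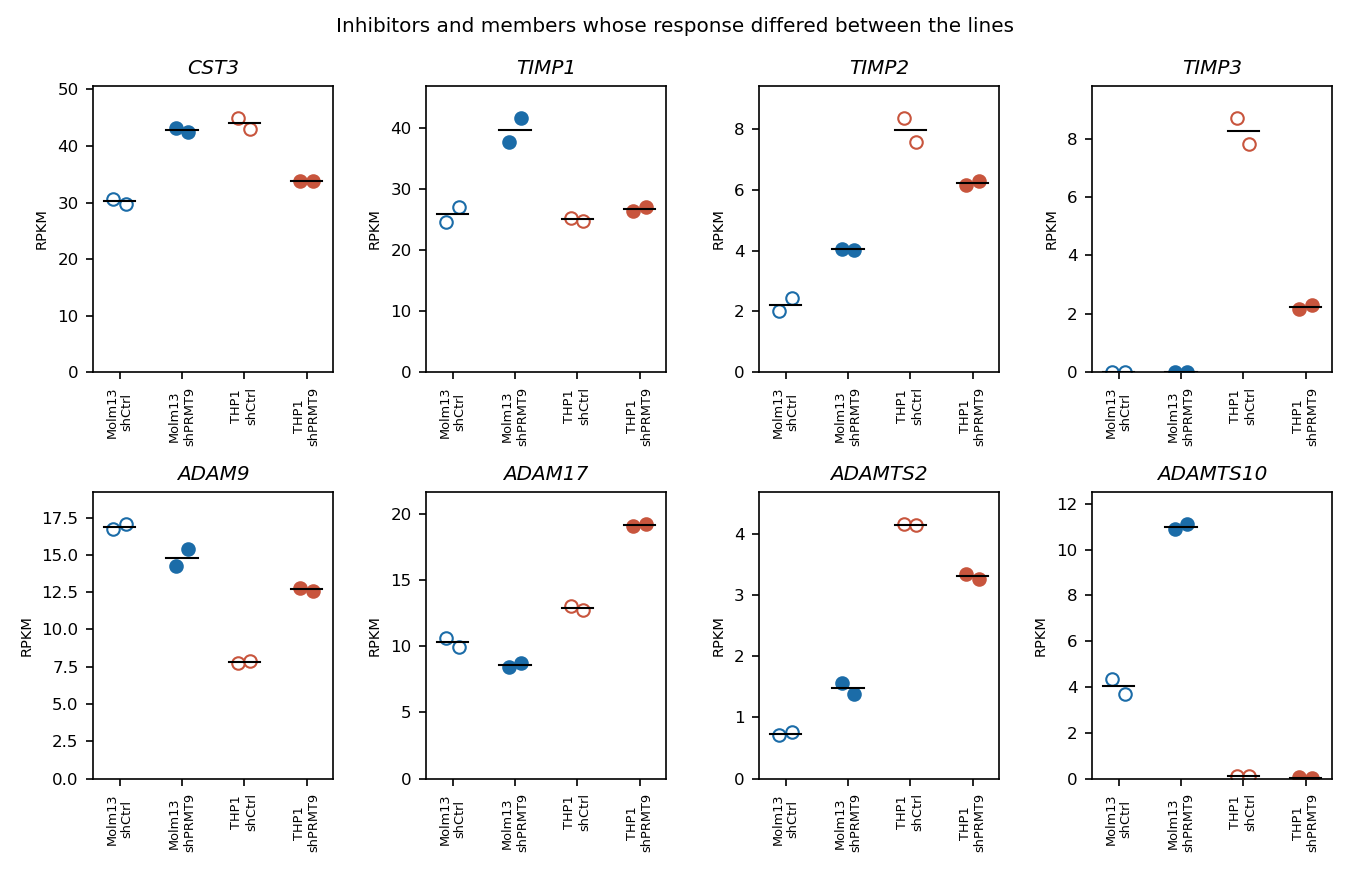
Levels in RPKM (y axis, from 0) of TIMP1, TIMP2, TIMP3, CST3, ADAM9, ADAM17, ADAMTS2 and ADAMTS10 in each library, by group on the x axis. Open points are shCtrl and filled points shPRMT9 libraries, and lines are group means. CST3, TIMP2 and ADAMTS2 lie higher after KD in Molm13 and lower in THP1, ADAM9 and ADAM17 the reverse, and TIMP3 is at 0 in Molm13.

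The cathepsins were the most abundant class, and 9 of 11 tested members rose and 2 fell in Molm13, whereas 9 of 13 rose and 1 fell in THP1. Class medians of the log2 fold change were 0.85 and 0.57. Summed over the 14 genes, the level went from 180 and 181 to 243 and 241 RPKM in Molm13 and from 229 and 216 to 372 and 369 RPKM in THP1.

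The cysteine cathepsins B, S, L and O rose in both lines. CTSB, an abundant endo- and exopeptidase, went from 36.7 and 36.1 to 70.7 and 68.7 RPKM in Molm13 and from 20.8 and 20.1 to 40.1 and 39.7 RPKM in THP1. Its log2 fold changes were 0.94 (SE 0.03, FDR = 3.89e-31) and 0.96 (SE 0.03, FDR = 5.06e-19). CTSS, which degrades the invariant chain during MHC class II antigen presentation (chr1:150730196-150765957), went from 35.2 and 34.5 to 62.3 and 63.3 RPKM in Molm13 and from 21.4 and 21.3 to 36.7 and 35.1 RPKM in THP1 (0.85, FDR = 2.58e-27, and 0.75, FDR = 5.87e-15). For CTSL, an endopeptidase (chr9:87725519-87731393), the levels were 6.04 and 7.04 against 11.6 and 11.9 RPKM in Molm13 and 45.5 and 41.7 against 82.0 and 79.9 RPKM in THP1 (0.84, FDR = 4.47e-13, and 0.89, FDR = 1.7e-16). CTSO, a little-studied cysteine cathepsin (chr4:155924118-155953917), was at 4.12 and 3.99 against 7.94 and 8.28 RPKM in Molm13 and at 2.56 and 2.31 against 5.87 and 4.62 RPKM in THP1 (1.00, FDR = 1.24e-14, and 1.11, FDR = 4.91e-09). No group overlapped its control for these genes. The differences between the lines were 0.04 (SE 0.04) for CTSB, -0.09 (SE 0.05) for CTSS, 0.06 (SE 0.09) for CTSL and 0.12 (SE 0.14) for CTSO, none of them called. That of CTSS was called with library size alone as the scaling (-0.13) and without THP1 shPRMT9 replicate 1 (-0.15).

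Larger rises in THP1 were found for CTSD and CTSH. CTSD, the main lysosomal aspartic protease (chr11:1752752-1764573), went from 6.24 and 6.26 to 7.47 and 7.36 RPKM in Molm13 (log2 fold change 0.25, FDR = 0.00318) and from 30.2 and 27.7 to 57.8 and 60.9 RPKM in THP1 (1.04, FDR = 1.54e-17). CTSH, an aminopeptidase (chr15:78921058-78949574), was low in Molm13, at 0.299 and 0.286 against 0.625 and 0.494 RPKM (0.92, FDR = 0.00034), and went from 3.45 and 3.44 to 12.2 and 12.0 RPKM in THP1 (1.81, SE 0.06, FDR = 3.89e-20). DESeq2 did not call CTSD in Molm13. The lines differed by 0.80 for CTSD (SE 0.08, FDR = 4.01e-14) and by 0.90 for CTSH (SE 0.23, FDR = 0.000609). CTSK, the collagen-degrading cathepsin of osteoclasts (chr1:150796208-150808323), rose in Molm13 from 1.40 and 1.65 to 3.68 and 3.83 RPKM (1.30, FDR = 1.38e-09). In THP1 it stood at 1.98 and 2.00 against 1.66 and 1.36 RPKM (-0.40, FDR = 0.0774), and it was called only without shPRMT9 replicate 1 (-0.54).

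CTSZ and CTSC took opposite directions. CTSZ, a carboxypeptidase (chr20:58995185-59007247), had the highest mean level of all members, with 53.8 and 53.8 against 44.4 and 42.8 RPKM in Molm13 and 59.0 and 56.0 against 85.4 and 85.8 RPKM in THP1. It fell in Molm13 (log2 fold change -0.31, FDR = 3.19e-09) and rose in THP1 (0.57, FDR = 7.89e-13). CTSC, which activates the serine proteases of myeloid granules, fell in Molm13 (-0.51, FDR = 4.68e-20) and rose in THP1 (0.23, FDR = 3.75e-06). The differences were 0.89 (SE 0.05, FDR = 5.9e-27) and 0.76 (SE 0.05, FDR = 2.03e-27). CTSV, a near relative of CTSL whose reads may be shared with it, rose in Molm13 (1.30, FDR = 0.0162) on at most 18 counts and fell in THP1 (-0.38, FDR = 0.0128). The Molm13 call was lost without shCtrl replicate 1 (0.86), shPRMT9 replicate 1 (1.49) or shPRMT9 replicate 2 (1.09), and the THP1 call without shCtrl replicate 2 (-0.36) or shPRMT9 replicate 2 (-0.33), and DESeq2 made neither. CTSA, a carboxypeptidase that protects other lysosomal enzymes, rose by 0.38 and 0.28 on the log2 scale (FDR = 2.67e-11 and 1.97e-06), and CTSF and CTSW were tested in THP1 only and not called (-0.54 and -0.03).

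**Figure D4:**
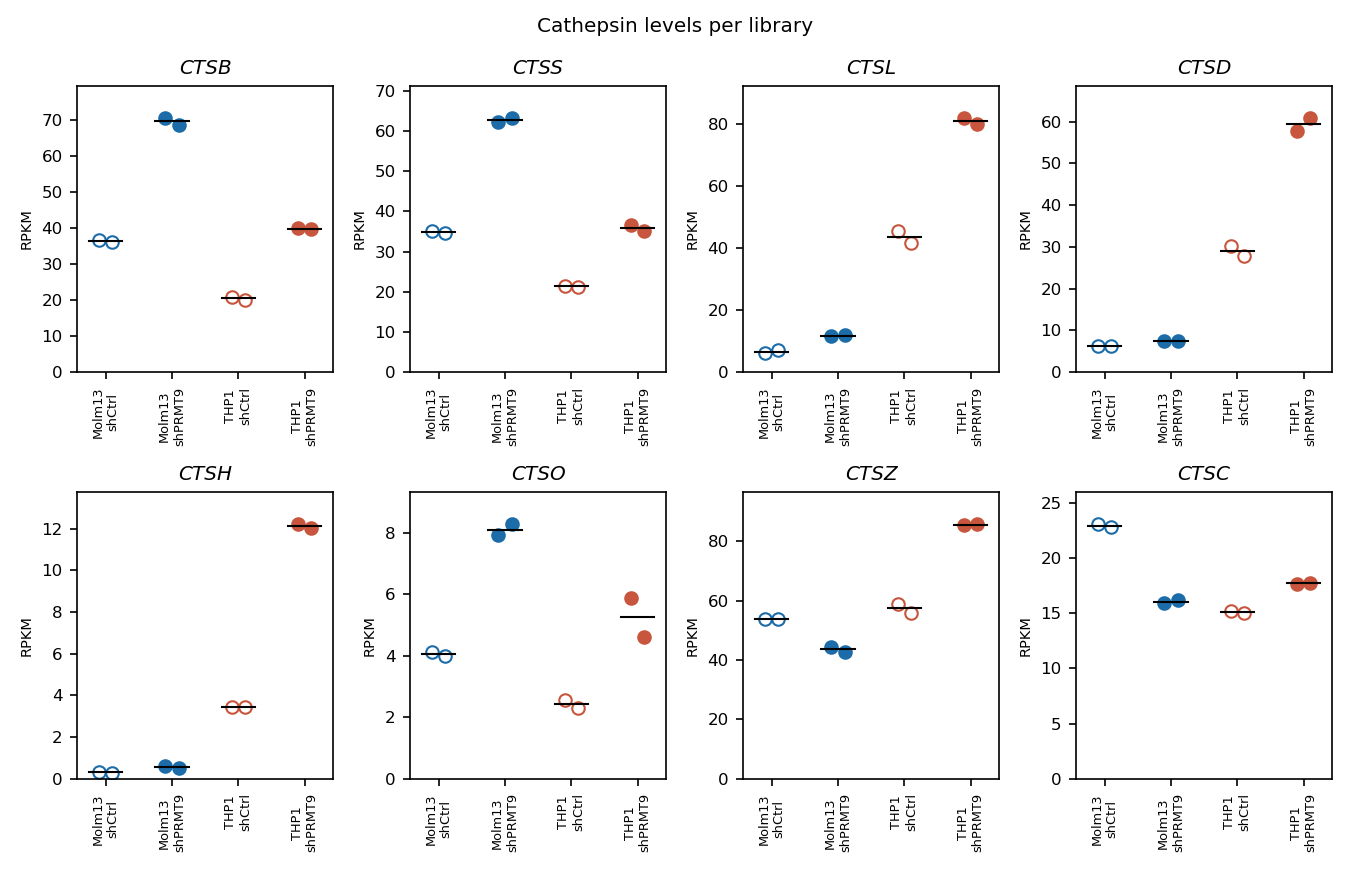
Levels in RPKM (y axis, from 0) of 8 cathepsins in each library, by group on the x axis. Open points are shCtrl and filled points shPRMT9 libraries, and lines are group means. CTSB, CTSS, CTSL and CTSO lie higher after KD in both lines, whereas CTSZ and CTSC lie lower in Molm13 and higher in THP1.

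CST3 (cystatin C), a secreted inhibitor of cysteine cathepsins (chr20:23626706-23638473), was at 30.7 and 29.8 RPKM in Molm13 controls and 43.1 and 42.5 after KD, and at 45.0 and 43.1 against 33.9 and 33.7 RPKM in THP1. It rose in Molm13 (log2 fold change 0.50, SE 0.03, FDR = 4.49e-17) and fell in THP1 (-0.38, SE 0.04, FDR = 3.01e-09), a difference of -0.87 (SE 0.05, FDR = 9.97e-28). CSTB, the intracellular cystatin B, rose in both, from 18.1 and 18.0 to 29.4 and 29.4 RPKM in Molm13 (0.70, FDR = 3.43e-17) and from 26.2 and 25.6 to 36.2 and 37.1 RPKM in THP1 (0.50, FDR = 4.07e-10). The summed level of the cystatins thus went from 48.8 and 47.9 to 72.6 and 71.9 RPKM in Molm13 and was 71.2 and 68.7 against 70.1 and 70.9 RPKM in THP1.

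Promoters were read from RefSeq (GRCh38.p14) as 250 bases before to 50 after the start, and 48 of the 84 members matched, 28 of the 52 tested ones among them. Motifs were searched on both strands. The core of the interferon-stimulated response element was in 3.57% of all 35116 promoters and the GAS motif TTCNNNGAA in 7.66%, and each was in 0 of the 48 windows of the members. The AP-1 site TGANTCA was in 7.71% of all promoters and in 4 windows, those of ADAMTS12, MMP7, MMP10 and MMP20. None of these 4 genes passed the filter on low counts in either line.

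The E-box CACGTG was in 7.26% of all promoters and in 8 of the members (16.7%), and the GC box GGGCGG in 45.0% and in 33 (68.8%). The longer lysosomal motif TCACGTGA, which contains the E-box, was in 0.98% of all promoters and in the window of CTSA alone. Of the members that rose in both lines, 8 matched, all 8 with a GC box and 3 with an E-box. The matches describe letters in these windows and not binding. For CTSL, CTSD, CTSH and CTSA, which rose in both lines, the 100 bases before the start are shown 5′ to 3′ on the strand of the gene, with E-boxes and GC boxes (in either orientation) in capitals. They lie at chr9:87726019-87726118 (plus), chr11:1763928-1764027 (minus), chr15:78945047-78945146 (minus) and chr20:45891235-45891334 (plus).
CTSL: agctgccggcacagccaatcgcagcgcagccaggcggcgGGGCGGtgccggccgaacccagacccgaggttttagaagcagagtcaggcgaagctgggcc
CTSD: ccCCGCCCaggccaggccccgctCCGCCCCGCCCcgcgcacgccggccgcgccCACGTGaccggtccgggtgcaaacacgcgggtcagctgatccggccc
CTSH: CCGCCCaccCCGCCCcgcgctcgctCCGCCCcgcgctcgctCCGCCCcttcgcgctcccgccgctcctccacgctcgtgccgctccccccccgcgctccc
CTSA: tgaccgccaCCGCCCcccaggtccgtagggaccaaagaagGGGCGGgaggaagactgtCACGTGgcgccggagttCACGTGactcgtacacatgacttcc
Within these 100 bases CTSA held 2 E-boxes, of which the one nearer to the start is part of the longer motif, CTSD held 1, and CTSL and CTSH had none. GC boxes numbered 1 for CTSL, 3 for CTSD, 4 for CTSH and 2 for CTSA.

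Over all 8 libraries, the response of 29 of the 52 members tested differed between the lines, 12 being higher in THP1 (23.1%) and 17 higher in Molm13 (32.7%). Over all 19288 genes tested, 22.8% and 19.4% differed in these directions. The 52 include members that passed the filter through THP1 alone. Among them TIMP3 and ADAMTS3 had no count in Molm13, so their differences (SE 2699 and 2652) could not be called. The shares of members are therefore over a set in which some had no Molm13 response to measure. The line cannot be told apart from the table and the handling of its libraries. By class, 5 ADAMs, 3 MMPs and 4 cathepsins were higher in THP1, and 3 ADAMs, 4 ADAMTS genes, 2 MMPs, 2 TIMPs, 4 cathepsins and 2 cystatins were higher in Molm13. The ADAM17, ADAM9, CTSC and CTSZ group (fell in Molm13, rose in THP1) and the ADAMTS2, TIMP2, CTSV and CST3 group (rose in Molm13, fell in THP1) made up the 8 members of opposite direction. Of the 29, 3 rest on Molm13 control counts of at most 3 in each library, namely CTSF, CTSW and ADAM12, and their fitted values depend on the prior count.

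**Figure D5:**
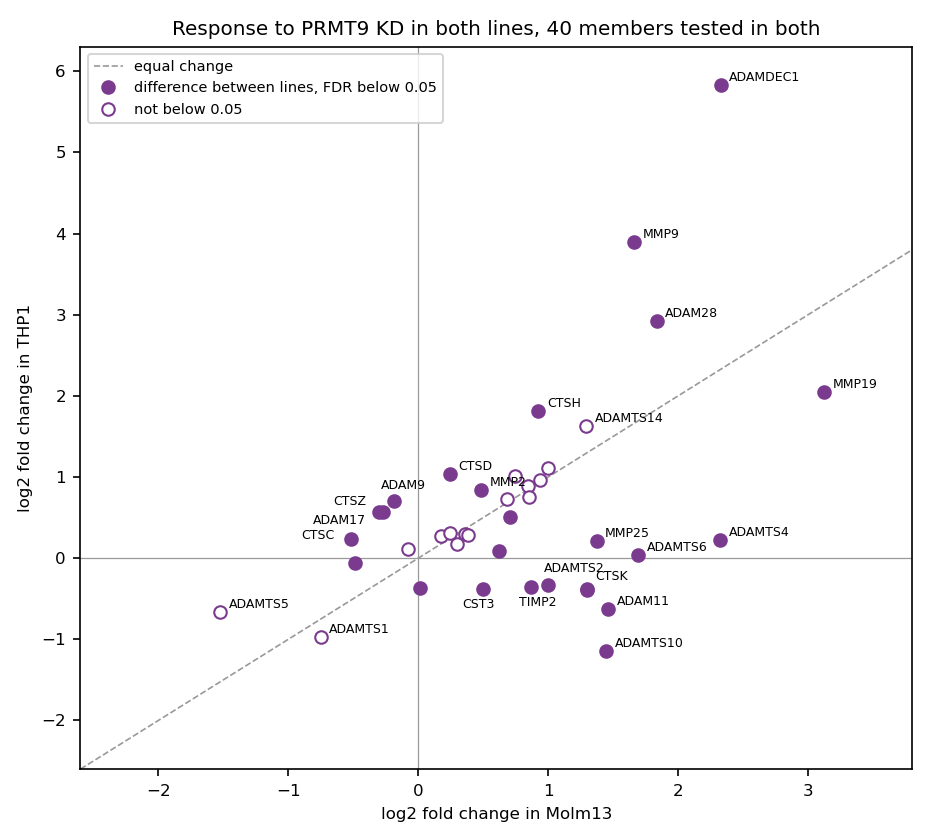
Log2 fold change (shPRMT9 against shCtrl) in Molm13 (x axis) and in THP1 (y axis) of the 40 members tested in both lines. Each point is a gene, filled where the difference between the lines had an FDR below 0.05, and the dashed line marks equal change. ADAMDEC1, MMP9 and ADAM28 lie above the line at the top right, and ADAMTS10 lies at 1.45 and -1.14.

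Genes that work with these proteases were read as 5 lists. Over all genes tested, 33.4% rose and 33.5% fell in Molm13, and 19.0% rose and 18.6% fell in THP1. Some list counts lie near these shares, such as the fallen lysosome genes in Molm13 and the fallen sheddase partners in THP1. Of 18 sheddase regulators and partners (rhomboid-like proteins, tetraspanins, proprotein convertases and gamma-secretase), 7 of 13 tested rose and 3 fell in Molm13, and 8 of 18 rose and 4 fell in THP1, with medians of 0.21 and 0.14. RHBDF1, which escorts ADAM17 to the surface, and the tetraspanin TSPAN10 had the largest changes in Molm13, with log2 fold changes of 1.75 and 1.74. In THP1 the largest were those of the tetraspanins TSPAN15 (0.80) and TSPAN5 (-0.54), which accompany ADAM10. In Molm13 TSPAN10 was read on at most 13 counts.

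Of 31 membrane proteins known to be shed, 17 of 23 tested rose and 4 fell in Molm13, and 17 of 28 rose and 2 fell in THP1 (medians 0.55 and 0.32). CSF1R, the receptor of macrophage colony-stimulating factor and also 1 of the monocytic markers, and the receptor kinase AXL led in Molm13 with log2 fold changes of 2.06 and 1.90. The haptoglobin-hemoglobin receptor CD163 and the adhesion molecule ICAM1 led in THP1, with 2.84 and 2.60. Among 21 genes of MMP regulation and the plasminogen system, 11 of 15 tested rose and 2 fell in Molm13, and 8 of 18 rose and 4 fell in THP1 (medians 0.61 and 0.13). SPOCK2, a proteoglycan, rose in Molm13 (2.22), and SERPINA1, the elastase inhibitor of plasma, rose in THP1 (2.40).

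Of 41 further lysosome genes, 40 were found in the tables, and 20 of 38 tested rose and 11 fell in Molm13, whereas 29 of 40 rose and 2 fell in THP1, with medians of 0.16 and 0.32. The lysosomal glycoprotein CD68 (1.18) and the acid glucosidase GAA (1.04) had the largest changes in Molm13. LGMN, the legumain that processes cathepsins (1.12), and PSAP, the precursor of the saposins (0.86), had the largest in THP1. The last list held 18 other inhibitor genes (cystatins, serpins and others), and not all of them inhibit the cathepsins described here. Only 5 were tested in each line, and 3 rose in Molm13 (median 0.47), while 1 rose and 1 fell in THP1 (median 0.00538). SERPINB1, an inhibitor of granule proteases, rose in both lines (1.04 and 0.39), and CST7 (cystatin F) rose in Molm13 (0.93), while SERPINB8 fell in THP1 (-0.26).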

How the data were processed

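Bulk poly(A) RNA-seq of Molm13 and THP1 cells was analyzed (Kapa mRNA HyperPrep kit, HiSeq 2500). The authors deposited raw counts per gene, whole numbers without normalization, in a separate table per line. The submitters' processing notes name TopHat2 2.0.8, HTSeq 0.11.2, edgeR 3.30.3 and hg38. The annotation and strand setting are not given in the sources used here. THP1 genes were matched by identifier to the symbols, coordinates and exon lengths of the Molm13 table.

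Counts were tested in R 4.3.3 with edgeR 4.0.16 (TMM, filterByExpr, quasi-likelihood test, Benjamini-Hochberg FDR over all genes tested), each line alone and without a replicate block. A DEG had an FDR under 0.05, changed over 1.5-fold either way and exceeded 1 RPKM in at least 1 library, reading the upper fold limit of the study's methods as above 1.5. A fit of all 8 libraries tested the difference between lines. SE was taken as |log2 fold change| over the root of the F statistic. RPKM uses TMM-scaled library sizes. Total counts per library limit precision for members with few counts, and no library pair agreed within sampling noise (chi-square per gene 1.35 to 2.16).

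Alternatives were other normalizations, no filter, DESeq2 1.42.0, other fold and RPKM limits, both lines in 1 fit, the replicate number as a block and leaving out each library. Scripts were tested on simulated counts. Values in every library are given for DEGs, for the 2 members of each class with the highest mean RPKM, and for members with few counts whose call depends on them (the last chosen after their values were seen). Of each related list, the 2 called genes with the largest absolute log2 fold change in each line are named. Some results that these rules cover are left out. The members and lists were chosen with earlier results of these data known.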

Additional observations from a re-analysis of the deposited data

Results flagged for a closer look

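Each value here is the log2 fold change in THP1 minus that in Molm13, and each gene is listed because a test of that difference over all 8 libraries (edgeR's quasi-likelihood test) had an FDR below 0.05. The response was higher in THP1 for ADAMDEC1 (3.51), MMP24 (2.95), MMP9 (2.24), ADAM28 (1.10), ADAM9 (0.90), CTSH (0.90), CTSZ (0.89), ADAM17 (0.85), CTSD (0.80), CTSC (0.76), ADAM15 (0.44) and MMP2 (0.37). It was higher in Molm13 for ADAMTS10 (-2.58), CTSF (-2.33), ADAMTS4 (-2.09), ADAM11 (-2.08), ADAM12 (-1.92), CTSW (-1.87), CTSK (-1.68), CTSV (-1.67), ADAMTS6 (-1.65), ADAMTS2 (-1.31), TIMP2 (-1.21), MMP25 (-1.15), MMP19 (-1.07), CST3 (-0.87), TIMP1 (-0.52), ADAM22 (-0.37) and CSTB (-0.19). For MMP24, CTSF, ADAM12 and CTSW, a group of Molm13 had at most 3 counts in each library, and these fitted values depend on the prior count. The line cannot be told apart from the table and the handling of its libraries.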

How the results depend on the processing

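With the fold and RPKM limits added to the FDR, 15 members rose and 1 fell in Molm13 (29 and 8 by FDR alone), and 10 rose and 2 fell in THP1 (23 and 10). A fold limit of 2 left 6 DEGs in each line, in place of 16 and 12, and no RPKM minimum gave 25 and 20. DESeq2 gave 5 members that fell in THP1 and 11 whose response was higher in Molm13, in place of 10 and 17. It gave no adjusted p for ADAMTS3 or ADAMTS14 in THP1, so neither counts as called by it. Leaving out each library in turn gave 26 to 29 risen, 8 fallen and 15 to 16 DEGs in Molm13, with medians of 0.70 to 0.72, and 23 risen, 6 to 10 fallen and 12 to 13 DEGs in THP1, with medians of 0.14 to 0.24. The lowest THP1 count and median came without shCtrl replicate 2, and the median was 0.16 without shPRMT9 replicate 2. The difference between lines was higher in THP1 for 10 to 13 members and in Molm13 for 13 to 17. The causes were not tested. The labels do not say whether library numbers pair the samples. The correlation of same-numbered deviations was -0.087 in Molm13 and -0.0143 in THP1. It was taken over all genes tested, those with few counts included, so it cannot exclude pairing. With the replicate block, Molm13 gave 29 risen, 8 fallen and 16 DEGs, THP1 gave 23, 10 and 12, and the difference 12 and 16, the lost call being CTSW.

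Values near 0 changed sign. ADAM22 in Molm13 (0.01) was -0.00334 without a filter and -0.0678 to 0.0863 with 1 library left out, ADAM15 in THP1 (-0.06) was -0.132 to 0.0158 and CTSW in THP1 (-0.03) was -0.245 to 0.153. The difference of CTSB (0.04) was -0.00699 with library size alone and -0.0207 to 0.0217 with 1 library left out, that of CTSL (0.06) was -0.0886 to 0.14 and that of CTSO (0.12) was -0.0912 to 0.247.

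Beside the losses given in the report, calls of the difference were lost for ADAM12 without any of 5 libraries (-0.58 without Molm13 shPRMT9 replicate 1), for ADAMTS6 without any library except Molm13 shCtrl replicate 1 (-1.04 without Molm13 shCtrl replicate 2), for MMP24 without THP1 shPRMT9 replicate 1 (1.79), for MMP2 (0.18 without THP1 shCtrl replicate 1), ADAM22 (-0.31 without THP1 shPRMT9 replicate 1), CTSF (-2.14 without Molm13 shCtrl replicate 2), CTSV (-1.26 without Molm13 shCtrl replicate 1) and CTSW (-1.11 without Molm13 shPRMT9 replicate 2). Calls were gained in THP1 for ADAMTS10 with both lines in 1 fit (-1.14), without shCtrl replicate 1 for ADAM32 (-0.55) and ADAMTS13 (1.54), and without shPRMT9 replicate 1 for MMP15 (0.24) and CTSK (-0.54). The difference of ADAM11 was called throughout and ranged from -3.70 without Molm13 shCtrl replicate 2 to -1.35 without Molm13 shCtrl replicate 1. DESeq2 did not call the difference of ADAM12, ADAM22, ADAMTS6, MMP2, CTSF and CTSW.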
